A study of Mus musculus with 36 samples.

Results

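Livers of 20 mice were compared to see which genes changed when a protein that activates the Met receptor was given during a high-fat diet. The comparison holds every library of the HFD experiment, 10 of mice given Fc(mML1)B3 and 10 of mice given Fc, of the 36 libraries of the whole series. All 20 were male C57BL/6J mice purchased at 7 weeks of age and fed for 12 weeks the CDAHFD, a choline-deficient diet that induces steatohepatitis. They were then fed an HFD with choline for 2 weeks, during which each mouse received 2 weekly subcutaneous injections. Fc(mML1)B3, at 5 mg/kg, is the Fc fragment of human IgG1 with the Met-binding macrocyclic peptide mML1 in one of its loops, and Fc, at 4.3 mg/kg, is the same fragment without the peptide. Every mouse of both groups therefore had been through the same liver injury and the same change of diet, and a liver without disease is not part of the comparison. Each library is 1 mouse.

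Met is a receptor tyrosine kinase that hepatocytes carry, and its natural ligand is hepatocyte growth factor (HGF), which is made in the liver mainly by stellate and other non-parenchymal cells. When HGF brings receptors together, Met signals through adaptors such as Gab1 and Grb2 to the Erk and Akt pathways. In the liver the pathway is known for growth after injury and for protection of hepatocytes against death and fibrosis.

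Reads were counted per gene, and 13299 genes had enough counts to be tested. The total per library was 15111050 to 27600939 in the Fc group and 14949035 to 25951690 in the Fc(mML1)B3 group. Values are given as CPM, the counts of a gene scaled to a common library total, after TMM scaling, which corrects for library composition. For a single gene, 3 values per group are those of the lowest, the median and the highest of its 10 mice. A change is the log2 fold change of Fc(mML1)B3 against Fc with its standard error. "Rose", "fell" and "passed" mean an adjusted p below 0.1 in edgeR's quasi-likelihood test, and "called" adds a fold change above 2, the limits the study used.

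At an adjusted p below 0.1, 2871 genes passed (21.6% of those tested), of which 1508 rose (11.3%) and 1363 fell (10.2%). With the fold limit, 88 were called higher (0.662%) and 90 lower (0.677%). The median change over all genes tested was -0.0099. The group difference held 16.5% of the variance of log2 CPM. For counts with all mice, these shares are the level against which each gene list below is to be read. The number called over all genes changes when libraries are left out. It was 247 without mouse 5 of the Fc(mML1)B3 group and 180 without Fc mice 7 and 8. List counts in such settings are given without the share of all genes in that setting.

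The summed CPM of 4 hepatocyte markers was 82291 to 123318 in the Fc mice and 82526 to 125887 in the Fc(mML1)B3 mice, and 0 of the 4 passed. Of the defining markers of Kupffer cells, stellate cells, endothelium and cholangiocytes, 0 passed. In contrast, all 3 tested neutrophil markers fell with all mice and none of them passed without Fc mice 7 and 8, with sums of 4.76 to 69.3 CPM in the Fc mice and 3.72 to 12.4 CPM in the Fc(mML1)B3 mice. The defining markers of pancreatic acinar cells (Cpa1, Ctrb1 and Pnlip) and of adipocytes (Adipoq, Plin1 and Lep) were too low to be tested, and Lep, the adipocyte hormone leptin, had no read in any library. Of the wider lists 1 of 19 acinar and 4 of 10 adipocyte genes were tested, and 0 passed. The adipocyte list summed to 1276 to 3725 CPM in the Fc mice and 1626 to 4984 CPM in the Fc(mML1)B3 mice, of which Car3, a carbonic anhydrase that liver also makes, took 1270 to 3712 and 1615 to 4974 CPM.

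A few libraries stood apart from their group. Fc mice 7 and 8 scored 33.4 and 27.2 on the third principal component, which held 10.3% of the variance. Fc(mML1)B3 mouse 5 scored -38.5 on the first, which held 29.6%. In Fc mice 7 and 8 H19, an imprinted fetal liver RNA, was at 223 and 160 CPM, while in the other 18 mice it was at most 9.1 CPM. Leaving out all 3 at once was chosen after seeing the data. Counts of list members that moved by more than 1.5 times and by 3 or more genes when Fc mice 7 and 8 or Fc(mML1)B3 mouse 5 were left out are given with and without them. In the Fc(mML1)B3 group the sample numbers of the files run 1 to 4 and restart at 1 with mouse 5. In the Fc group they are 7 to 10 for mice 1 to 4 and 1 to 6 for mice 5 to 10. No number repeats there, so a split between mice 4 and 5 follows a restart only in the Fc(mML1)B3 group. What these numbers mark is not given in the sources used here. A comparison within mice 1 to 4 and within mice 5 to 10 of both groups, also chosen after seeing the data, has 4 and 6 mice a group, and Fc mice 7 and 8 and Fc(mML1)B3 mouse 5 are all in the second.

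**Figure D1:**
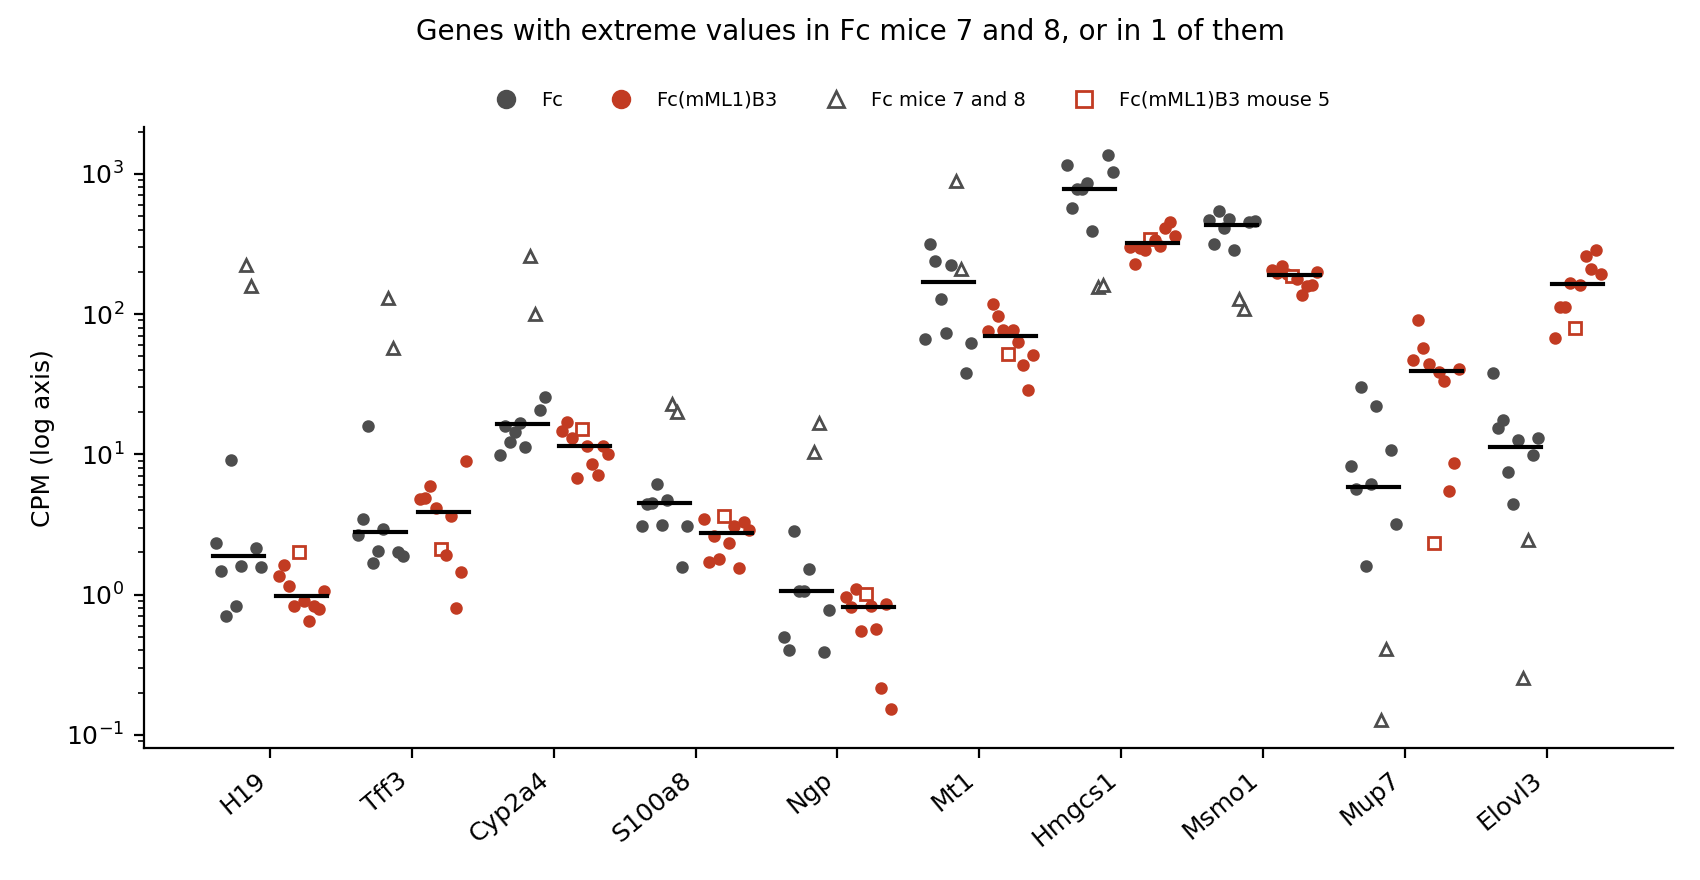
CPM of 10 genes (log axis) in each of the 20 livers, with group medians as black lines, Fc mice 7 and 8 as open triangles and Fc(mML1)B3 mouse 5 as an open square. H19 stood at 223 and 160 CPM in Fc mice 7 and 8, and one or both of these mice had the highest or lowest Fc value of every other gene shown.

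Genes of the circadian clock were among those with the smallest p. The clock is a loop in which the activators Bmal1 (gene Arntl) and Clock switch on the Per, Cry and Rev-erb genes through E-boxes, and the Per and Cry proteins then repress the activators. Rev-erb receptors (Nr1d1, Nr1d2) repress Arntl through ROR elements and ROR receptors activate it, and the PAR bZIP factors Dbp, Tef and Hlf carry the rhythm to metabolic genes in the liver. Both tested activators were called higher, while among 8 tested repressors 2 rose and 4 fell. The time of day at which the mice were killed is not given in the sources used here, so a difference in that time and an effect of Fc(mML1)B3 on the clock cannot be told apart. The log2 ratio of Arntl to Dbp in each liver had a correlation of 0.945 with the group, and with this ratio as a covariate 0 genes passed in edgeR's test and 1054 had an unadjusted p below 0.05.

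Arntl stood at 0.636, 1.17 and 2.11 CPM in the Fc mice and 6.74, 20.1 and 29.4 CPM in the Fc(mML1)B3 mice. Its change was 3.98 ± 0.29 (SE, adjusted p = 1.1e-08), and the groups did not overlap. Clock, the partner of Bmal1, was at 14.7, 17.7 and 22.5 CPM in the Fc mice and 18.5, 38.1 and 45.6 CPM in the Fc(mML1)B3 mice. It rose by 1.02, less than Arntl, and the groups overlapped. One Fc(mML1)B3 mouse, number 2, lay within the range of the Fc mice with 18.5 CPM.

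Per genes did not move together. Per1, which also answers to glucocorticoids, was at 22.6, 42.4 and 58.3 CPM in the Fc mice and 12.7, 25.7 and 38.3 CPM in the Fc(mML1)B3 mice, a change of -0.77 ± 0.20 (SE, adjusted p = 0.012). Per3 was at 37.8, 46.0 and 55.5 CPM in the Fc mice and 12.5, 18.2 and 29.5 CPM in the Fc(mML1)B3 mice, a change of -1.21 ± 0.14 (SE, adjusted p = 3.8e-06), with groups that did not overlap. Per2 had 24.9, 42.2 and 51.5 CPM in the Fc mice and 41.8, 52.6 and 75.3 CPM in the Fc(mML1)B3 mice, and its change of 0.41 ± 0.11 (SE, adjusted p = 0.016) went the other way. Thus within the family 1 member rose and 2 fell.

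Ciart, a repressor of the Bmal1-Clock pair, stood at 11.2, 19.8 and 29.7 CPM in the Fc mice and 1.05, 3.24 and 11.8 CPM in the Fc(mML1)B3 mice. It was called lower with a change of -1.96 ± 0.33 (SE, adjusted p = 2.8e-04), and the groups overlapped. Cry1, a repressor with a peak late in the cycle, was called higher with a change of 2.22 ± 0.20 (SE, adjusted p = 3.4e-07), whereas the related Cry2 had a change of 0.02 (adjusted p = 0.91). Bhlhe41, which competes for E-boxes, fell by 0.93 on the log2 scale.

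Of the receptors, Nr1d1 and Nr1d2 were called lower with changes of -2.97 and -1.51. Rora, a ROR receptor, had a change of 0.03 (adjusted p = 0.83).

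Among the PAR bZIP factors, Dbp, which shares exonic sequence with Sphk2, was at 73.9, 100.1 and 137.01 CPM in the Fc mice and 3.21, 6.46 and 25.4 CPM in the Fc(mML1)B3 mice. It was called lower with a change of -3.31 ± 0.33 (SE, adjusted p = 5.4e-07), and the groups did not overlap. Tef was at 154, 176 and 217 CPM in the Fc mice and 81.5, 102 and 145 CPM in the Fc(mML1)B3 mice, a change of -0.76 ± 0.09 (SE, adjusted p = 9.4e-06), and the groups did not overlap. Hlf, of the same family, had a change of 0.06 (adjusted p = 0.71). Nfil3, a bZIP repressor that binds the sites of these factors, was called higher at 1.87.

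**Figure D2:**
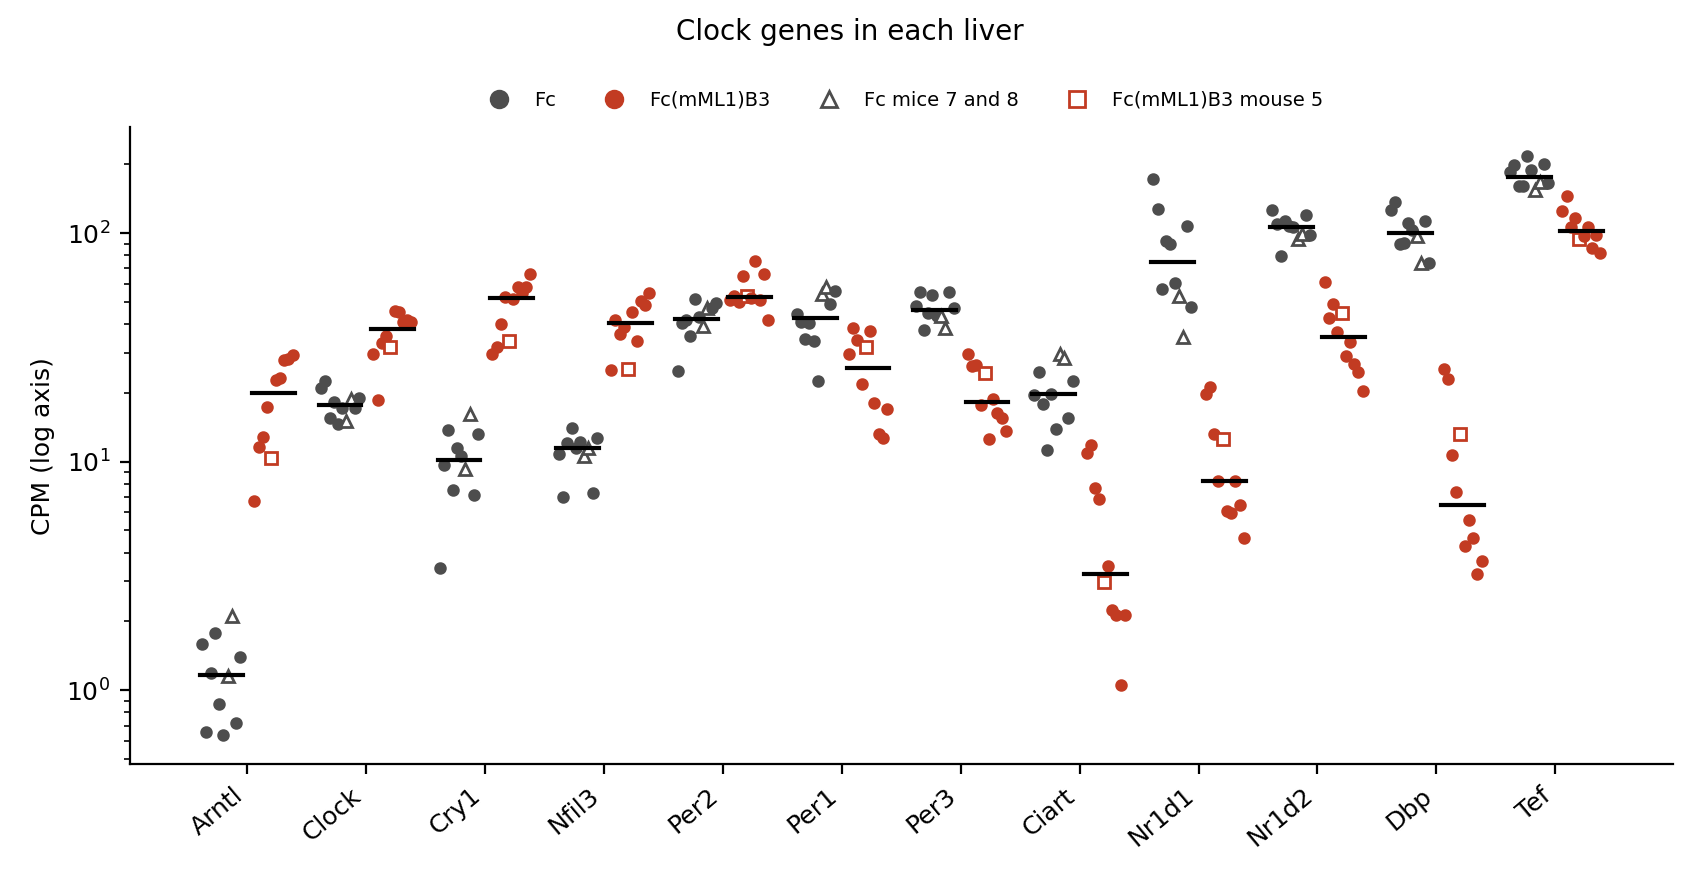
CPM (log axis) of 12 clock genes in each liver, with group medians as black lines, Fc mice 7 and 8 as open triangles and Fc(mML1)B3 mouse 5 as an open square. Arntl, Cry1 and Nfil3 lay higher and Nr1d1, Nr1d2, Per3, Dbp and Tef lower in all Fc(mML1)B3 mice than in any Fc mouse, whereas Clock, Per1, Per2 and Ciart overlapped.

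The promoters of the called genes were searched for the E-box CACGTG and the ROR core site TAGGTCA, on both strands, in the 300 bases from 250 before to 50 after each RefSeq start on GRCm38.p6. The ROR core site lay in 8.86% of 79 promoters of 61 genes called higher, in 1.27% of 79 promoters of 60 genes called lower and in 2.61% of all 32851 promoters. The E-box lay in 10.1%, 6.33% and 7.15% of the same sets. The 7 genes called higher with a ROR core site were Arntl, Nfil3, Leo1, Slc45a3, Micalcl, Caln1 and Ces4a. Arntl, Nfil3 and Leo1 are shown for the ROR core site, and Cry1 (called higher) and Ciart (called lower) for the E-box. Their matches, in capitals, overlap neither each other's motif nor the D-box or metal response core below.
Arntl, chr7:113207261-113207560, plus strand: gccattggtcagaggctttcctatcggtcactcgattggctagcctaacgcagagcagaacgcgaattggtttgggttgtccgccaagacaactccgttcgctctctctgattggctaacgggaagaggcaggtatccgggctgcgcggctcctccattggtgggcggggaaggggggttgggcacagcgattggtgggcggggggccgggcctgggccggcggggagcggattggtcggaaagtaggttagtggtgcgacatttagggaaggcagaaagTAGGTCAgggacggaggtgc
Nfil3, chr13:52980990-52981289, minus strand: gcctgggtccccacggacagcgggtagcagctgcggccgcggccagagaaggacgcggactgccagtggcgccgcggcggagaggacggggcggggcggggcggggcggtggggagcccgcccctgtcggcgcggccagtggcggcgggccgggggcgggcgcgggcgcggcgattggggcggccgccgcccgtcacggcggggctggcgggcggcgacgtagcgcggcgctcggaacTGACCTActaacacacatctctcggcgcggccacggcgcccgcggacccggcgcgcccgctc
Leo1, chr9:75441274-75441573, plus strand: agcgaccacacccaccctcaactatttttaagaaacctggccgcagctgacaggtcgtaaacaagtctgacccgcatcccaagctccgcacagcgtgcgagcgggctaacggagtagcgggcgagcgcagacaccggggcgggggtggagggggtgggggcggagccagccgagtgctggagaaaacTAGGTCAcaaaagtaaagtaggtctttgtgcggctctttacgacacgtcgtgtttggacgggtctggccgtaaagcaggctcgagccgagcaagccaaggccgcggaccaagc
Cry1, chr10:85185005-85185304, minus strand: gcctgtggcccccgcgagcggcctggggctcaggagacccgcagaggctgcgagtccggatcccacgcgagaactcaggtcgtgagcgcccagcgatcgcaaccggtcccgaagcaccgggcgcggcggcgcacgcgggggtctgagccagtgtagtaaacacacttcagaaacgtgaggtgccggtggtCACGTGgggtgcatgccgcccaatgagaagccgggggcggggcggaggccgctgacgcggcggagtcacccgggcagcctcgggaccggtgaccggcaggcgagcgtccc
Ciart, chr3:95882179-95882478, minus strand: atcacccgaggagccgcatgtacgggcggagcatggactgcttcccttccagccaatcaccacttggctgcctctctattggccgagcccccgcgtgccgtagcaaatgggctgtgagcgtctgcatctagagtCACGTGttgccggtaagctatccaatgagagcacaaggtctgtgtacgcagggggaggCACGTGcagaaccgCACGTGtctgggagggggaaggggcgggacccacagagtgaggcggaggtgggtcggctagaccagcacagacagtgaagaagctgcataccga
The Arntl ROR site began 30 bases after the start site, that of Nfil3 12 bases before it and that of Leo1 63 bases before it. The Cry1 E-box began 60 bases before the start, and the 3 Ciart E-boxes lay between 116 and 44 bases before it. Cry1 and Ciart hold the same 6 letters and moved in opposite directions. The D-box TTANGTAA was in 2.53% of promoters called higher and 3.8% of those called lower, against 2.32% of all, and the metal response core TGCNCNC in 57% and 55.7%, against 51%. A match is only these letters in this window.

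Most heat shock genes rose. These chaperones fold proteins in the cytosol and are switched on by Hsf1, and several of them follow the daily cycle of body temperature in mouse liver. Of 23 tested members 17 rose and 1 fell, with a median change of 0.521. The 3 members called were Hsph1, Hspa1b and Hsp90aa1. The number that rose was 18 without Fc mice 7 and 8, 19 without Fc(mML1)B3 mouse 5 and 19 without all 3. Within mice 1 to 4 of both groups 13 rose, and within mice 5 to 10 of both 16 rose.

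Hspa8, the constitutive Hsp70 of the cytosol, was at 743, 1122 and 1459 CPM in the Fc mice and 1739.6, 2006 and 2597 CPM in the Fc(mML1)B3 mice. Its change was 0.94 ± 0.12 (SE, adjusted p = 1.7e-05), and the groups did not overlap. Hsph1, a nucleotide exchange factor of Hsp70, was at 19.9, 33.3 and 55.4 CPM in the Fc mice and 53.3, 98.0 and 130.99 CPM in the Fc(mML1)B3 mice. Its change of 1.49 ± 0.19 (SE, adjusted p = 1.5e-05) was the largest of the list, though the groups overlapped. Hsp90aa1, the inducible Hsp90, stood at 111, 164 and 209.7 CPM in the Fc mice and 204, 345 and 501 CPM in the Fc(mML1)B3 mice, and rose by 1.08 ± 0.15 (SE, adjusted p = 4.4e-05). The cochaperones Stip1 (0.80) and Dnaja1 (0.70) and the constitutive Hsp90ab1 (0.45) also rose without overlap between the groups. The RNA of Hsf1 itself had a change of 0.10 (adjusted p = 0.45).

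Cirbp, an RNA-binding protein induced by cold, was the member that fell. It was at 19.5, 26.1 and 44.1 CPM in the Fc mice and 14.03, 17.1 and 30.7 CPM in the Fc(mML1)B3 mice, a change of -0.64 ± 0.15 (SE, adjusted p = 0.0069), and the groups overlapped. Rbm3, the other cold-inducible gene of the list, had a change of 0.15 (adjusted p = 0.12), and passed when Fc(mML1)B3 mouse 2, 8 or 9 was left out.

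Chaperones of the endoplasmic reticulum, which fold secreted proteins, rose as well, with 10 of 19 tested members higher and none lower (median change 0.292). Hspa5, the luminal Hsp70 also called BiP, was at 353, 494 and 758 CPM in the Fc mice and 604, 991 and 1759 CPM in the Fc(mML1)B3 mice, a change of 0.97 ± 0.18 (SE, adjusted p = 6.9e-04). Hyou1, its nucleotide exchange factor, was at 45.8, 80.3 and 100.2 CPM in the Fc mice and 98.3, 177 and 271 CPM in the Fc(mML1)B3 mice, a change of 1.19 ± 0.19 (SE, adjusted p = 1.4e-04). The groups overlapped for both genes. Creld2 (1.27) and Manf (1.09), secreted proteins induced by stress of this compartment, and Hyou1 were called, and so was Syvn1 (1.00), the ligase of ER-associated degradation, which shares exonic sequence with Mrpl49. Xbp1, a transcription factor that induces these chaperones, had a change of 0.12 (adjusted p = 0.51). Of 23 ATF4 stress genes 3 rose and 3 fell (6 rose without Fc mice 7 and 8), and Trib3, a pseudokinase induced by that arm, was called lower at -1.24 (adjusted p = 0.0013).

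**Figure D3:**
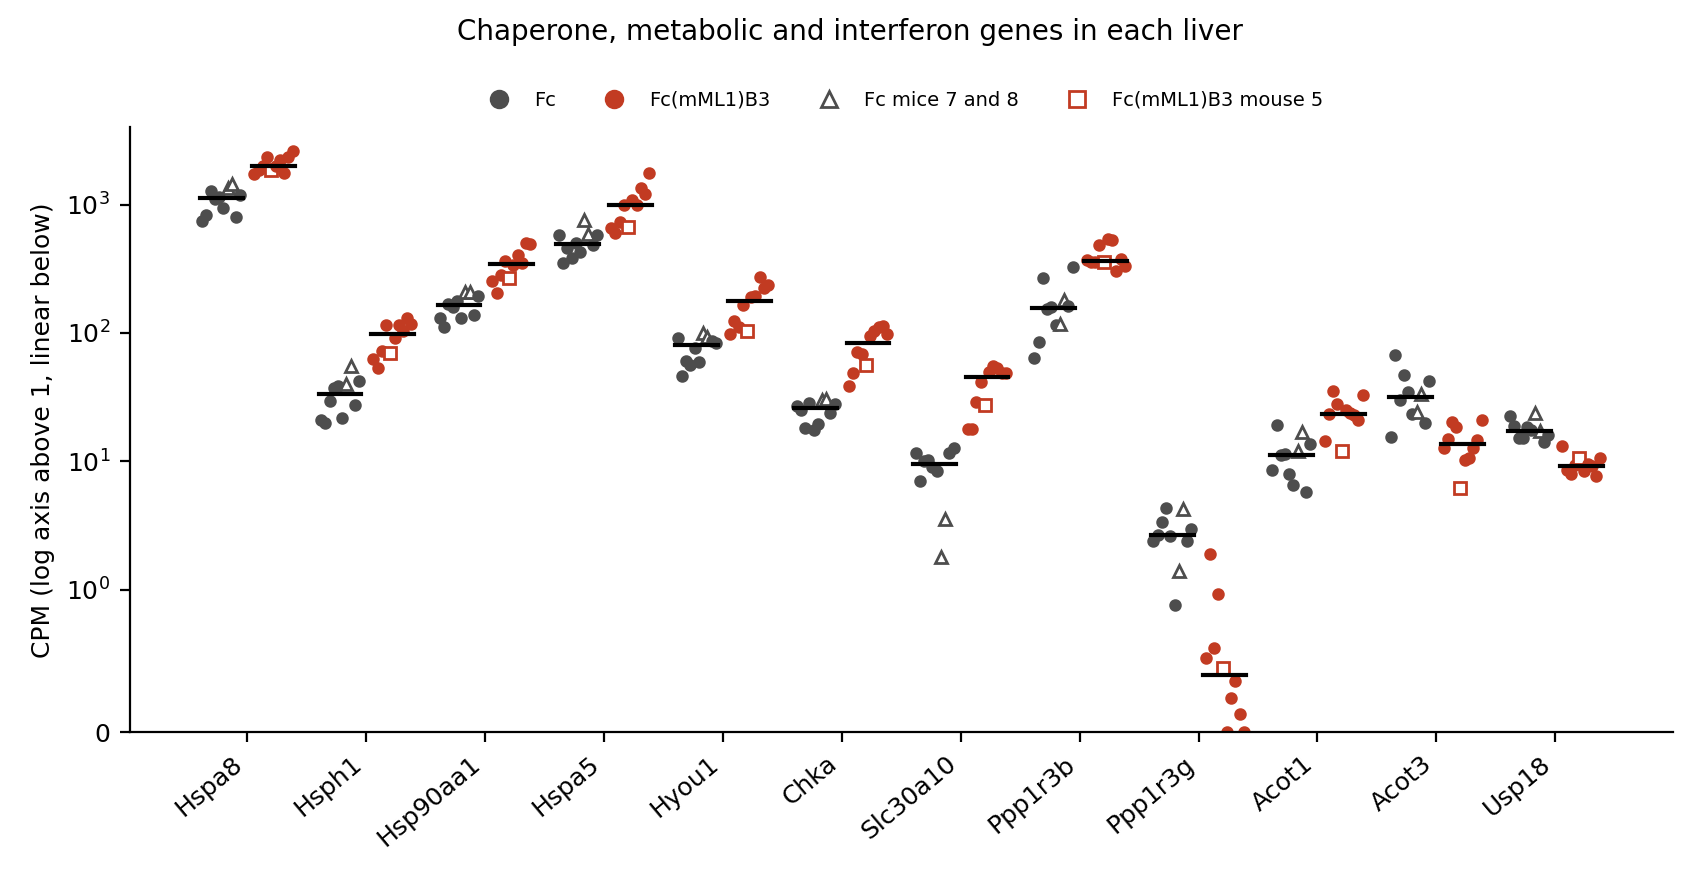
CPM of 12 chaperone, metabolic and interferon genes in each liver (axis logarithmic above 1 CPM and linear below), with group medians as black lines, Fc mice 7 and 8 as open triangles and Fc(mML1)B3 mouse 5 as an open square. Hspa8, Chka and Slc30a10 lay higher and Usp18 lower in every Fc(mML1)B3 mouse than in any Fc mouse.

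Cholesterol synthesis fell in part, and how much depended on Fc mice 7 and 8. The enzymes of this pathway turn acetyl-CoA into cholesterol and are switched on together by Srebf2 when sterols are low. Of 23 tested members 9 fell and none rose, with a median change of -0.541. Fc mice 7 and 8 had the lowest levels of several of them, and without these mice 19 of 23 fell, with a median of -0.722. Without all 3 libraries that stood apart, 19 fell. With library totals in place of TMM, which shifts the median of all genes by -0.0955, 17 fell. Within mice 1 to 4 of both groups 16 fell, and within mice 5 to 10, which include Fc mice 7 and 8, 1 fell.

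Hmgcs1, which makes HMG-CoA, was at 155, 776 and 1349 CPM in the Fc mice and 228, 321 and 454 CPM in the Fc(mML1)B3 mice. It was the member called lower, with a change of -1.13 ± 0.29 (SE, adjusted p = 0.012) and of -1.38 (adjusted p = 2.8e-05) without Fc mice 7 and 8. Fc mice 7 and 8 had 155 and 162 CPM. Msmo1, a demethylase late in the pathway, was at 109, 430.0 and 539 CPM in the Fc mice and 136, 191 and 220.1 CPM in the Fc(mML1)B3 mice, a change of -0.99 ± 0.22 (SE, adjusted p = 0.0033). Lss, which makes lanosterol (-0.73), and Sc5d, a late desaturase (-0.75), fell too. Fdft1, the squalene synthase, which shares sequence with Ctsb, fell as well (-0.72). The RNA of Srebf2 had a change of 0.08 (adjusted p = 0.68).

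Of 15 sterol regulators and LXR targets, 2 rose and 7 fell, and without all 3 libraries 3 rose and 7 fell. Without Fc mouse 3 alone 4 fell. Insig2, which holds SREBP in the endoplasmic reticulum, was called higher at 1.42. Abcg8, a canalicular sterol exporter that shares an exon with Abcg5, was at 58.0, 86.3 and 98.7 CPM in the Fc mice and 31.5, 42.5 and 75.2 CPM in the Fc(mML1)B3 mice, a change of -0.81 ± 0.13 (SE, adjusted p = 2.3e-04). Npc1, which moves cholesterol out of lysosomes, changed by -0.51 (adjusted p = 4.4e-05), and Soat2, which esterifies it, by -0.39 (adjusted p = 0.0020).

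For bile acids, 6 of 25 tested genes rose and 1 fell. Cyp2c70, which makes the muricholic acids of the mouse, was at 190.4, 235 and 328 CPM in the Fc mice and 323, 474 and 590.4 CPM in the Fc(mML1)B3 mice, a change of 0.91 ± 0.13 (SE, adjusted p = 3.5e-05). Cyp7b1, of the alternative synthesis route, rose by 0.92. Cyp7a1, the rate-limiting enzyme of the classical route, had a change of -0.30 (adjusted p = 0.42).

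The mice had lacked choline for 12 weeks and had it again for 2, so the genes that use it were counted. Choline is either phosphorylated to make phosphatidylcholine or oxidized to betaine, which gives its methyl group to methionine. Of 31 tested genes 9 rose and 2 fell (median 0.132), and over the single libraries left out 6 to 12 rose.

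Chka, the kinase that starts phosphatidylcholine synthesis, was at 17.6, 26.2 and 30.4 CPM in the Fc mice and 38.3, 82.8 and 113 CPM in the Fc(mML1)B3 mice. It was called higher with 1.70 ± 0.18 (SE, adjusted p = 9.6e-07), and the groups did not overlap. Bhmt, which moves the methyl group of betaine to homocysteine, was at 947, 1782 and 2435 CPM in the Fc mice and 2179, 2816 and 4305 CPM in the Fc(mML1)B3 mice, a change of 0.71 ± 0.15 (SE, adjusted p = 0.0028). Ahcy, which splits S-adenosylhomocysteine, rose by 0.59 and Mat1a, which makes S-adenosylmethionine, by 0.32, which did not pass when Fc mouse 1 or Fc(mML1)B3 mouse 6 was left out. Pcyt1b, an enzyme of the next step after Chka, fell with -0.88 (adjusted p = 0.017), and Lpcat3, which remodels phospholipids, with -0.39 (adjusted p = 0.0032). Pemt, the methylation route to phosphatidylcholine, had a change of 0.05 (adjusted p = 0.79).

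Genes of glycogen handling split by subunit. The Ppp1r3 proteins bring a phosphatase to glycogen and so favour its synthesis. Ppp1r3b was at 63.8, 157 and 329 CPM in the Fc mice and 302, 365 and 538 CPM in the Fc(mML1)B3 mice, a change of 1.29 ± 0.22 (SE, adjusted p = 3.0e-04), and Ppp1r3c was called higher at 2.34. Ppp1r3g, another of these subunits, was at 0.890, 2.65 and 4.37 CPM in the Fc mice and 0, 0.405 and 1.90 CPM in the Fc(mML1)B3 mice, a change of -2.34 ± 0.44 (SE, adjusted p = 7.8e-04). At these levels Ppp1r3g rests on few reads per library. Pygl, the liver phosphorylase, rose by 0.50, and Stbd1, which tethers glycogen to membranes, fell by 0.57 on the log2 scale with groups that did not overlap. In all, 3 of 17 tested genes rose and 4 fell.

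Of 19 genes of glycolysis and glucose entry 6 rose and 3 fell. Pklr, the liver pyruvate kinase, changed by 0.64 (adjusted p = 0.085), and by 0.42 (adjusted p = 0.15) without Fc mice 7 and 8, so it did not pass without them. Pdk4, a kinase that slows entry of pyruvate into oxidation, was called higher at 1.08 (adjusted p = 0.014), but had -0.0598 (adjusted p = 0.9) within mice 1 to 4 of both groups. Pfkfb1, the liver form of the fructose-2,6-bisphosphate enzyme, rose by 0.73. Slc45a3, a sugar transporter family member, was called higher at 1.48 (adjusted p = 4.1e-06). For gluconeogenesis and the fasting response 2 of 19 rose and 1 fell.

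Of 33 genes of PPAR alpha and fatty acid oxidation 5 rose and 1 fell, but 15 rose without Fc(mML1)B3 mouse 5 and 10 without all 3 libraries. Without Fc mouse 3 or Fc mouse 5 alone 11 and 9 rose. Acot1, a cytosolic acyl-CoA thioesterase, was at 5.81, 11.3 and 19.2 CPM in the Fc mice and 11.9, 23.5 and 35.2 CPM in the Fc(mML1)B3 mice, a change of 1.07 ± 0.21 (SE, adjusted p = 0.0011). Acot3, a near copy of it in the peroxisome, was at 15.5, 31.8 and 67.5 CPM in the Fc mice and 6.16, 13.7 and 20.9 CPM in the Fc(mML1)B3 mice, a change of -1.26 ± 0.23 (SE, adjusted p = 6.9e-04). The pair moved in opposite directions, and reads of so similar genes may be assigned with uncertainty. Cpt1a, the gate of mitochondrial oxidation, had a change of -0.17 (adjusted p = 0.32).

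Lipid droplet genes gave 5 higher and 3 lower of 20. Plin5, a coat protein of droplets in oxidative cells, was at 14.1, 27.5 and 43.7 CPM in the Fc mice and 54.1, 67.5 and 92.5 CPM in the Fc(mML1)B3 mice. It was the member called higher, with a change of 1.29 ± 0.15 (SE, adjusted p = 4.1e-06), and the groups did not overlap. Pnpla2, the first triglyceride lipase, changed by -0.62 (adjusted p = 6.9e-04), and Mgll, the last, by 0.59 (adjusted p = 0.0012). Plin3, a droplet coat protein, changed by -0.46 (adjusted p = 9.5e-04). Of 24 lipoprotein genes 3 rose and 3 fell, and 7 rose without Fc(mML1)B3 mouse 5 and 6 without Fc mouse 3. Of 24 fatty acid synthesis genes 1 rose and 2 fell, 5 fell without Fc mice 7 and 8, and 7 fell without TMM.

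Glucocorticoid response genes, which adrenal hormone switches on through Nr3c1, had 7 of 18 higher and 1 lower (median 0.326). Fkbp5, a chaperone that limits the receptor, was at 15.8, 26.1 and 41.5 CPM in the Fc mice and 35.3, 55.6 and 85.2 CPM in the Fc(mML1)B3 mice, a change of 1.12 ± 0.17 (SE, adjusted p = 7.3e-05). Zbtb16, a transcription factor, was at 1.19, 4.67 and 10.3 CPM in the Fc mice and 6.25, 14.3 and 27.1 CPM in the Fc(mML1)B3 mice, a change of 1.68 ± 0.32 (SE, adjusted p = 0.0010). Cdkn1a, the cell cycle inhibitor p21, was at 3.23, 5.80 and 17.4 CPM in the Fc mice and 11.3, 20.6 and 53.4 CPM in the Fc(mML1)B3 mice, a change of 1.82 ± 0.31 (SE, adjusted p = 2.6e-04). All 3 and Lonrf3 (1.25) were called, and Tsc22d3, also known as GILZ, rose by 0.89. Per1 was the member that fell. Tat, a hepatic tyrosine enzyme of the list, had a change of 0.30 (adjusted p = 0.49). It passed without all 3 libraries that stood apart, at 0.622 (adjusted p = 0.097). Cdkn1a is also a target of p53, and of 22 p53 targets 6 rose and none fell.

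Male-biased genes, which the pulses of growth hormone in male mice maintain through Stat5b, had 9 of 28 higher and 1 lower, with a median of 0.444. Elovl3, an elongase of very long fatty acids, was at 0.256, 11.3 and 38.1 CPM in the Fc mice and 67.0, 163 and 288 CPM in the Fc(mML1)B3 mice. It was called higher with 3.76 ± 0.46 (SE, adjusted p = 8.2e-06) and 3.48 (adjusted p = 2.2e-06) without Fc mice 7 and 8, and the groups did not overlap. Fc mice 7 and 8 had the lowest levels of it, and Elovl3 shares sequence with Pitx3. Mup7 and Mup12, major urinary proteins, were called higher at 2.06 (adjusted p = 0.027) and 1.22 (adjusted p = 0.061), but this family has near-identical copies and its reads are uncertain. Mup12 did not pass without Fc mice 7 and 8, at 0.97 (adjusted p = 0.13). Igf1, the growth factor that growth hormone induces, rose by 0.37.

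In Fc mice 7 and 8 the female-biased Cyp2a4, a steroid hydroxylase, stood at 261 and 99 CPM. Cyp2a4 was at 9.91, 16.3 and 261 CPM in the Fc mice and 6.73, 11.5 and 17.1 CPM in the Fc(mML1)B3 mice, a change of -2.07 ± 0.54 (SE, adjusted p = 0.012), which was -0.46 (adjusted p = 0.12) without these mice. Its near copies among the Cyp2a genes make its level uncertain.

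Genes of metals and heme included some of the clearest single changes. Slc30a10, a manganese exporter, was at 1.79, 9.57 and 12.7 CPM in the Fc mice and 17.8, 44.99 and 55.2 CPM in the Fc(mML1)B3 mice. It was called higher with 2.16 ± 0.27 (SE, adjusted p = 1.2e-05) and groups that did not overlap, and it shares sequence with Gm2061, which was called higher too. Clpx, the unfoldase that activates heme synthesis in mitochondria, was at 60.9, 65.9 and 83.4 CPM in the Fc mice and 104, 220.1 and 323 CPM in the Fc(mML1)B3 mice, a change of 1.67 ± 0.16 (SE, adjusted p = 5.4e-07), and the groups did not overlap. Cpox, an enzyme of heme synthesis, rose by 0.67 and Slc25a38, the mitochondrial glycine carrier of the pathway, by 0.38, so that 5 of 17 heme genes rose and 1 fell. Without Fc mouse 3 alone 9 heme genes rose. Alas1, the rate-limiting enzyme, had a change of -0.44 (adjusted p = 0.35), and passed when Fc(mML1)B3 mouse 1 was left out.

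The metallothioneins Mt1 and Mt2, which bind zinc and copper, were called lower. Mt1 was at 37.8, 169 and 887 CPM in the Fc mice and 28.7, 69.7 and 117 CPM in the Fc(mML1)B3 mice, a change of -1.71 ± 0.43 (SE, adjusted p = 0.0098), and -1.06 (adjusted p = 0.041) without Fc mice 7 and 8. Mt2 was at 14.8, 36.6 and 382 CPM in the Fc mice and 8.00, 24.5 and 52.5 CPM in the Fc(mML1)B3 mice, a change of -1.62 ± 0.50 (SE, adjusted p = 0.031), and -0.83 (adjusted p = 0.16) without them. Mt2 thus passed with all mice and did not pass without these, and Mt1 passed in both. Fc mouse 7 held the highest Mt1 value, 887 CPM.

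Genes of the Met pathway itself were counted in 3 lists. Among 14 tested genes of the receptor, its ligand and the proteases that activate it, none rose or fell with all mice, against 11.3% and 10.2% of all genes, and the median was -0.101. That count depended on the libraries kept. It was 1 higher and 3 lower without Fc(mML1)B3 mouse 5, and 1 higher and none lower without Fc mice 7 and 8. Without all 3 libraries 1 rose and 1 fell. Met was at 57.6, 68.4 and 79.4 CPM in the Fc mice and 43.6, 63.9 and 72.9 CPM in the Fc(mML1)B3 mice, a change of -0.13 ± 0.08 (SE, adjusted p = 0.31). Hgf was at 5.06, 7.40 and 14.6 CPM in the Fc mice and 2.94, 7.18 and 11.2 CPM in the Fc(mML1)B3 mice, a change of -0.13 ± 0.21 (SE, adjusted p = 0.70). The groups overlapped for both genes. Of 22 adaptors and effectors 2 rose and 2 fell, near the shares of all genes.

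Erk response genes, which growth factor signals switch on within hours, had 1 of 21 higher and 3 lower. The number lower was 1 without Fc mice 7 and 8 and 5 without Fc(mML1)B3 mouse 5. Ccnd1, the cyclin of entry into the cell cycle, was at 68.0, 104 and 218 CPM in the Fc mice and 51.4, 68.1 and 82.7 CPM in the Fc(mML1)B3 mice, a change of -0.72 ± 0.16 (SE, adjusted p = 0.0034) and of -0.47 (adjusted p = 0.0057) without Fc mice 7 and 8. Mapk3, which encodes Erk1, changed by -0.39 (adjusted p = 0.0019), and Epha2, a receptor kinase induced by Erk, by 0.71 (adjusted p = 0.021). Egfr, the EGF receptor of hepatocytes, rose by 0.62, and Btc, a ligand of it, fell by 0.63 on the log2 scale. In the cell cycle list 0 of 36 rose and 2 fell (5 fell without Fc mouse 3), and Mki67, the proliferation marker, had a change of -0.40 (adjusted p = 0.16), and passed without Fc(mML1)B3 mouse 5, at -0.48 (adjusted p = 0.071), and without Fc mouse 3.

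Interferon response genes were lower, with 17 of 33 lower and none higher (median -0.342). These genes make antiviral and antigen-processing proteins once interferon receptors have signalled. When Fc mice 7 and 8 were left out 10 fell, and without all 3 libraries 10 fell with a median of -0.211. Within mice 1 to 4 of both groups 4 fell, and within mice 5 to 10 of both 17 fell. Usp18, the protease that turns interferon signalling off, was at 14.1, 17.3 and 23.9 CPM in the Fc mice and 7.67, 9.26 and 13.1 CPM in the Fc(mML1)B3 mice, a change of -0.91 ± 0.11 (SE, adjusted p = 5.0e-06), and the groups did not overlap. Psmb9, an immunoproteasome subunit, changed by -0.70 (adjusted p = 0.0012), and Ddx58, the RNA sensor RIG-I, by -0.45 (adjusted p = 2.5e-04) with groups that did not overlap. Stat2, a transcription factor of this response, changed by 0.19 (adjusted p = 0.20), and passed without Fc(mML1)B3 mouse 5, at 0.24 (adjusted p = 0.067).

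Genes of neutrophils were lower, and the number that fell depended on Fc mice 7 and 8. With all mice 8 of 14 fell, and without both mice 2 of 14 did. In whole liver, fewer cells of a type and less RNA per cell cannot be told apart. S100a8, a calcium-binding protein of neutrophils, was at 1.57, 4.49 and 22.8 CPM in the Fc mice and 1.56, 2.76 and 3.64 CPM in the Fc(mML1)B3 mice, a change of -1.46 ± 0.40 (SE, adjusted p = 0.017), and -0.53 (adjusted p = 0.12) without these mice. Ngp, a granule protein of immature neutrophils, was at 0.392, 1.07 and 16.6 CPM in the Fc mice and 0.153, 0.820 and 1.10 CPM in the Fc(mML1)B3 mice, a change of -2.29 ± 0.65 (SE, adjusted p = 0.020), and -0.57 (adjusted p = 0.37) without them. Neither passed without Fc mice 7 and 8. S100a9, the partner of S100a8, was called lower at -1.27 (adjusted p = 0.042), as were Chil3 (-1.18), Slpi (-1.04) and Prtn3 (-1.40), and none of these passed without Fc mice 7 and 8 either. Without all 3 libraries 4 of 14 fell.

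B and plasma cell genes fell with and without these mice, 7 of 13 with all mice and 6 without Fc mice 7 and 8. Within mice 1 to 4 of both groups 3 fell, and within mice 5 to 10 of both 1 fell. Jchain, which joins secreted IgA and IgM, was at 3.31, 11.6 and 28.4 CPM in the Fc mice and 1.45, 3.94 and 11.1 CPM in the Fc(mML1)B3 mice, a change of -1.24 ± 0.36 (SE, adjusted p = 0.023), and -1.01 (adjusted p = 0.065) without them. Mzb1, a chaperone of antibody secretion, was called lower at -1.10 (adjusted p = 0.017), and Cd22, a receptor of mature B cells, changed by -0.75 (adjusted p = 0.0015). The groups overlapped for Jchain.

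T and NK cell genes had 2 of 22 lower, MHC class II genes 1 of 10 and lipid-associated macrophage genes 4 of 20, with 1 of the last higher. Ncam1, a marker of NK cells also made by stellate cells, which shares exonic sequence with Gm11149, was called lower at -1.18 (adjusted p = 0.018). Fc(mML1)B3 mouse 5 had the highest mean of log2(CPM + 0.5) over the members of its group for each of these lists. Without that mouse 10, 8 and 18 genes fell, whereas without all 3 libraries 1, 4 and 10 fell, with 1 more T and NK cell gene tested in both settings. The macrophage list had no gene lower without Fc mice 7 and 8 alone. Without Fc mouse 3, 5 or 10 alone 6 of the MHC class II genes fell each time, and without Fc mouse 5 alone 9 of the macrophage genes did. For these lists the count therefore depended on which libraries were kept.

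Of 20 Kupffer and macrophage genes 1 rose and 1 fell. Marco, a scavenger receptor of resident macrophages, was called lower with -2.06 ± 0.73 (SE, adjusted p = 0.060), and had -1.15 (adjusted p = 0.29) without Fc mice 7 and 8. Its change within mice 1 to 4 of both groups was 1.24 (adjusted p = 0.32), in the other direction. Id3, a regulator that Kupffer cells need, rose by 0.66. Adgre1, which encodes F4/80, had a change of -0.28 (adjusted p = 0.17). Of 27 chemokines and cytokines none rose and 5 fell, and 8 fell without Fc(mML1)B3 mouse 5. Among the 5 were Cxcl9, which interferon gamma induces, at -0.63 (adjusted p = 0.088), and Il33, an alarmin, at -0.65 (adjusted p = 0.025), but Cxcl9 did not pass without Fc mice 7 and 8, at -0.24 (adjusted p = 0.42), nor without 11 of the single libraries. For Cxcl9 the change within mice 1 to 4 of both groups was 0.00677 (adjusted p = 0.99). Cxcl1, Ccl2 and Ccl5, which draw neutrophils, monocytes and T cells, had changes of -0.17, -0.11 and -0.47 and did not pass. Ccl5 passed without Fc mouse 5 or Fc(mML1)B3 mouse 3.

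**Figure D4:**
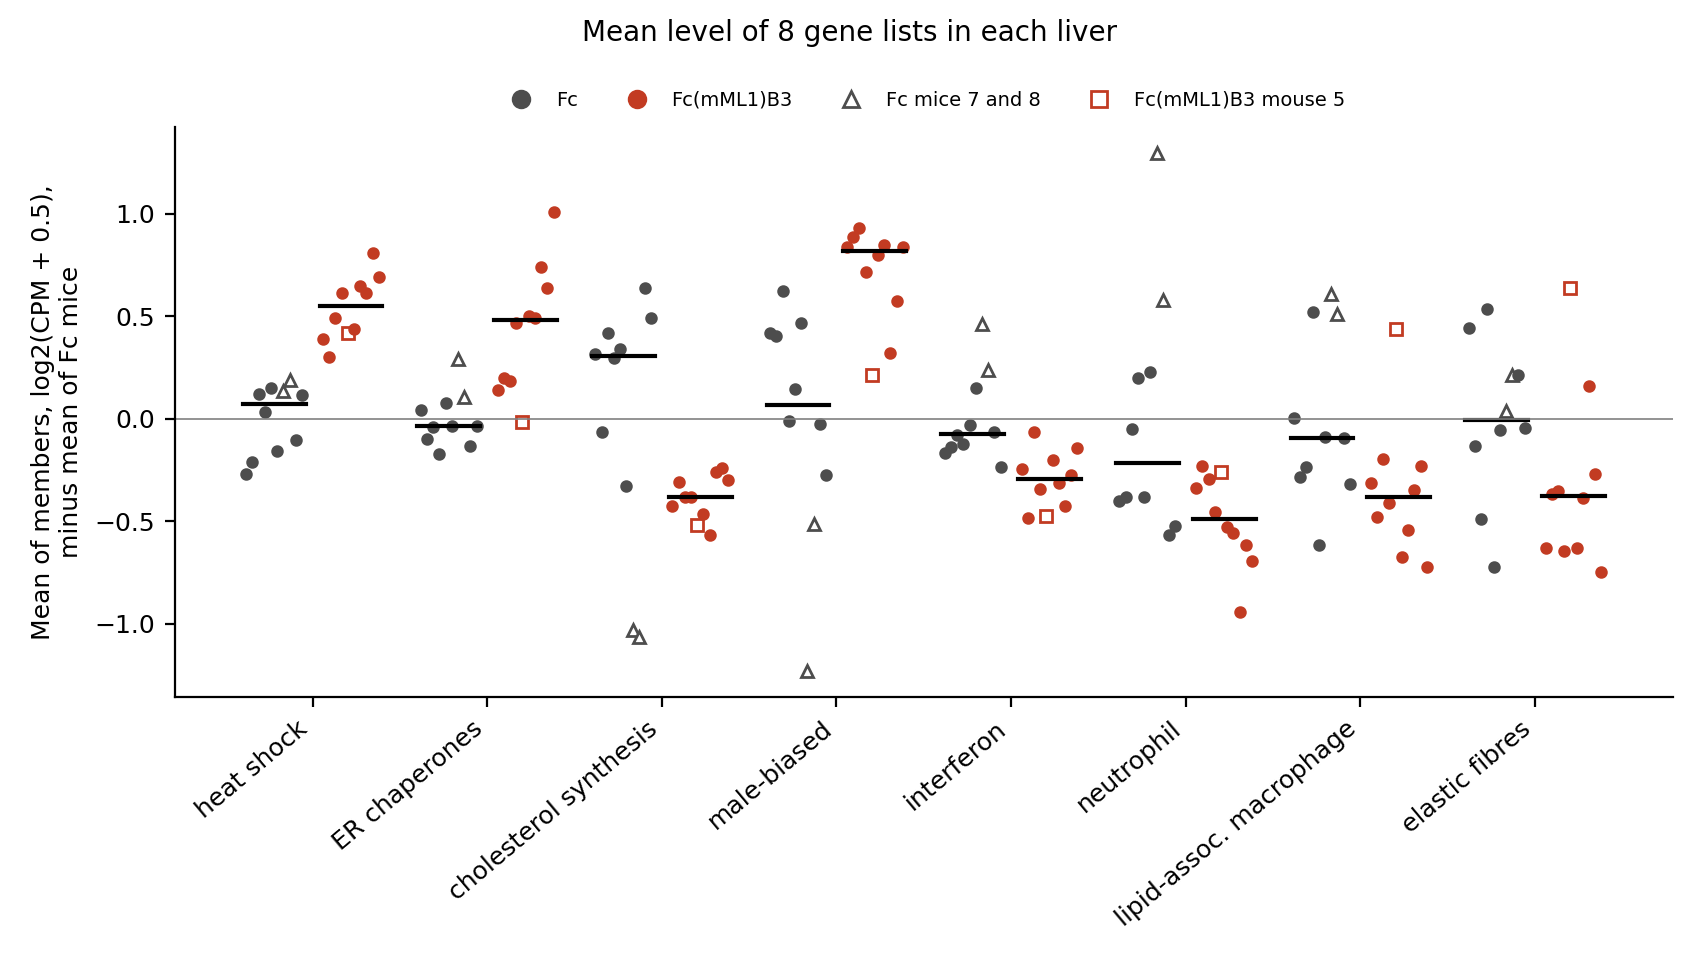
Mean of log2(CPM + 0.5) over the tested members of 8 gene lists in each liver, as the difference from the mean of the Fc mice, with group medians as black lines. Heat shock means lay higher in every Fc(mML1)B3 mouse than in any Fc mouse, while ER chaperone means overlapped. Fc mice 7 and 8 (open triangles) were the lowest Fc mice for cholesterol synthesis and male-biased genes and the highest for neutrophil genes, and Fc(mML1)B3 mouse 5 (open square) was the highest of its group for lipid-associated macrophage genes and elastic fibres.

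Counts of matrix genes, which activated stellate cells make in a fibrotic liver, depended on the same libraries. Of 24 elastic fibre and crosslinking genes 1 rose and 6 fell. When Fc mice 7 and 8 were left out 2 fell, without Fc(mML1)B3 mouse 5 17 fell, and without all 3 libraries 11 fell. Over the other single libraries left out 3 to 8 fell. Loxl1, which crosslinks elastin, was the member called lower, at -1.09 (adjusted p = 0.015). Of 24 stellate cell genes 1 rose and 3 fell with all mice, 6 fell without Fc(mML1)B3 mouse 5 and 8 without all 3. For 14 fibrillar collagens 1 rose and 2 fell with all mice, and 1 rose and none fell without Fc mice 7 and 8. Of these genes 2 rose and 7 fell without Fc(mML1)B3 mouse 5, and 1 rose and 3 fell without all 3. Of 26 proteoglycans 1 rose and 1 fell with all mice, and 2 rose and none fell without Fc mice 7 and 8 (27 tested). In this list 1 rose and 12 fell without Fc(mML1)B3 mouse 5, and 2 rose and 7 fell without all 3.

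Some markers of other tissues were high in Fc(mML1)B3 mouse 5, given here as CPM of library totals without TMM. Others were not, and its 12 erythroid genes summed to 74.1 CPM, the lowest of its group. The adipocyte list summed to 1998 CPM in it, against a group median of 3197 CPM. The list of 13 muscle and mesothelium genes, 0 of which passed, summed to 10.7 to 39.0 CPM in the Fc mice and 6.27 to 88.1 CPM in the Fc(mML1)B3 mice (median 14.9), with the 88.1 in mouse 5. Krt19, a keratin of mesothelium that cholangiocytes make too, took 64.9 CPM of it, against at most 17.96 CPM in any other mouse, and without Krt19 the list was at 23.2 CPM in mouse 5 and at most 21.0 CPM in the other 19. The mesothelial markers Msln, Upk3b and Lrrn4 were also highest in this mouse among all 20, at 5.42, 7.02 and 1.27 CPM. Wt1 and Upk1b of this list were not, at 6.69 and 1.2 CPM, against up to 8.69 and 2.23 CPM in the Fc mice. The muscle markers Ckm, Myh1, Myh4 and Tnnt3 had no read in mouse 5. The 19 acinar genes summed to 26.02 CPM in mouse 5, against 11.1 to 17.7 CPM in the Fc mice. Reg1 was at 10.8 and Ctrb1 at 4.15 CPM in it, with no read of Cpa1 or Pnlip. Cela1 was at 10.1 CPM, below the 10.56 to 16.08 CPM of the Fc mice. The part of these markers in the matrix counts was not tested.

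Col15a1, a collagen of basement membrane zones, was at 10.2, 19.6 and 31.2 CPM in the Fc mice and 5.64, 11.4 and 16.2 CPM in the Fc(mML1)B3 mice, a change of -0.86 ± 0.20 (SE, adjusted p = 0.0049). Ngfr, a neurotrophin receptor of stellate cells, changed by -0.92 (adjusted p = 0.0057). Col1a1 and Col3a1, the main fibrillar collagens, had changes of -0.37 (adjusted p = 0.29) and -0.19 (adjusted p = 0.49), and Acta2, the smooth muscle actin of myofibroblasts, one of 0.34 (adjusted p = 0.55). None of the last 3 passed with all mice. Without Fc(mML1)B3 mouse 5 Col1a1 passed, at -0.55 (adjusted p = 0.057), and Acta2 had the other direction, at -0.25 (adjusted p = 0.42).

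Plat, the tissue plasminogen activator, was at 2.66, 6.06 and 9.12 CPM in the Fc mice and 1.95, 2.43 and 5.26 CPM in the Fc(mML1)B3 mice, a change of -0.99 ± 0.22 (SE, adjusted p = 0.0033). Tgfb1, the main fibrogenic cytokine, changed by -0.41 (adjusted p = 0.022), and by -0.25 (adjusted p = 0.076) without Fc mice 7 and 8. Inhbc, a hepatocyte activin subunit, changed by 0.72 (adjusted p = 3.1e-04). Lefty1, an inhibitor of Nodal, was called lower at -1.01 (adjusted p = 0.096) but did not pass without Fc mice 7 and 8, at -1.02 (adjusted p = 0.14). In the TGF-beta and BMP list 4 of 30 rose and 4 fell.

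Among liver cell types of epithelial origin, 4 of 21 cholangiocyte genes fell and none rose. The number that fell was 2 without Fc mice 7 and 8, 11 without Fc(mML1)B3 mouse 5, in which Krt19 of this list was highest, and 7 without all 3 libraries, and 7 without Fc mouse 3 alone. Tff3, a secreted mucosal peptide, was called lower with -2.51 ± 0.79 (SE, adjusted p = 0.034), but had -0.08 (adjusted p = 0.94) without Fc mice 7 and 8, in which it stood at 130.8 and 57.6 CPM. Of 22 hepatocyte factors and secreted proteins 6 rose and 2 fell. Onecut1 (0.95), Foxa1 (0.60) and Hnf4a (0.37), transcription factors of hepatocyte identity, rose. Onecut1 did not pass without Fc mice 7 and 8, at 0.86 (adjusted p = 0.10). H19 was at 0.700, 1.87 and 223 CPM in the Fc mice and 0.651, 0.981 and 2.02 CPM in the Fc(mML1)B3 mice, a change of -5.14 ± 1.11 (SE, adjusted p = 0.0027), and -1.13 (adjusted p = 0.062) without the pair of mice in which it was high.

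Tight junction genes had 3 of 19 higher and 3 lower. Cldn1, which seals bile canaliculi, was at 31.6, 40.7 and 61.2 CPM in the Fc mice and 61.2, 93.7 and 143.4 CPM in the Fc(mML1)B3 mice. It was called higher with 1.26 ± 0.16 (SE, adjusted p = 1.9e-05), and the groups overlapped. Tjp3, a scaffold of the junction that shares sequence with Apba3, changed by 0.95 (adjusted p = 1.8e-04).

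For position in the lobule, 2 of 21 pericentral genes rose and 1 fell. Of 22 periportal genes 3 rose with all mice, 6 without Fc(mML1)B3 mouse 5 and 8 without all 3 libraries. Cytosolic ribosomal proteins had 2 of 77 higher (median 0.0754), against 11.3% of all genes tested, and 1 or 2 over the single libraries left out. The respiratory chain had 5 of 78 higher and 2 lower (median 0.127), but the number higher was 13 without Fc(mML1)B3 mouse 5, 16 without Fc mouse 3, 11 without Fc mouse 5, 1 without Fc mice 7 and 8 and 1 to 7 over the other single libraries left out.

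Slc5a6, a vitamin transporter of the list on NAD and biotin that shares exonic sequence with Atraid, was at 21.7, 28.1 and 37.0 CPM in the Fc mice and 7.63, 9.92 and 15.1 CPM in the Fc(mML1)B3 mice. It was called lower with a change of -1.497 ± 0.12 (SE, adjusted p = 6.9e-08), and the groups did not overlap.

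Outside the lists, among the genes with the smallest p, Fpgs, which adds glutamates to folate and shares exonic sequence with Eng, was called higher at 1.01. Eif4ebp3, a repressor of translation, was higher at 1.57, Ddc, a decarboxylase of aromatic amino acids, at 1.25, and Ccnf, a cyclin, at 1.04. Ablim3 (1.05) and Pnkd (1.12) were higher as well, and the groups did not overlap for any of these 6. Called lower were Gnat1, a transducin subunit (-1.68), Slc2a5, a fructose transporter (-1.66), Fads3, of the desaturase family (-1.07), Themis (-1.13), Eepd1 (-1.17), Ell3 (-1.01), Klhdc7a (-1.10), Meiob (-1.16), 1810008I18Rik (-1.28) and 4931408D14Rik (-1.18). Of these 10, Gnat1, Klhdc7a and 4931408D14Rik did not overlap between the groups. By size of change, Cyp2g1 was called lower at -2.22 (adjusted p = 0.0012) and Serpina9 higher at 1.95 (adjusted p = 0.0076), both near 1 CPM. Igdcc4 and Gucy2c were called lower at -2.35 (adjusted p = 0.023) and -2.13 (adjusted p = 0.077), but without Fc mice 7 and 8 had -0.34 (adjusted p = 0.58) and 0.24 (adjusted p = 0.82) and did not pass.

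The pseudogene Serpina4-ps1 was at 0.833, 10.3 and 33.01 CPM in the Fc mice and 35.2, 69.4 and 186 CPM in the Fc(mML1)B3 mice, a change of 2.75 ± 0.47 (SE, adjusted p = 3.1e-04), and the groups did not overlap. Rgs16, a regulator that shortens G-protein signalling, was at 14.98, 148 and 212 CPM in the Fc mice and 5.04, 19.6 and 43.8 CPM in the Fc(mML1)B3 mice, a change of -2.46 ± 0.43 (SE, adjusted p = 4.4e-04). Over all genes, 129 (0.97%) did not overlap between the groups, 74 higher and 55 lower in the Fc(mML1)B3 mice.

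**Figure D5:**
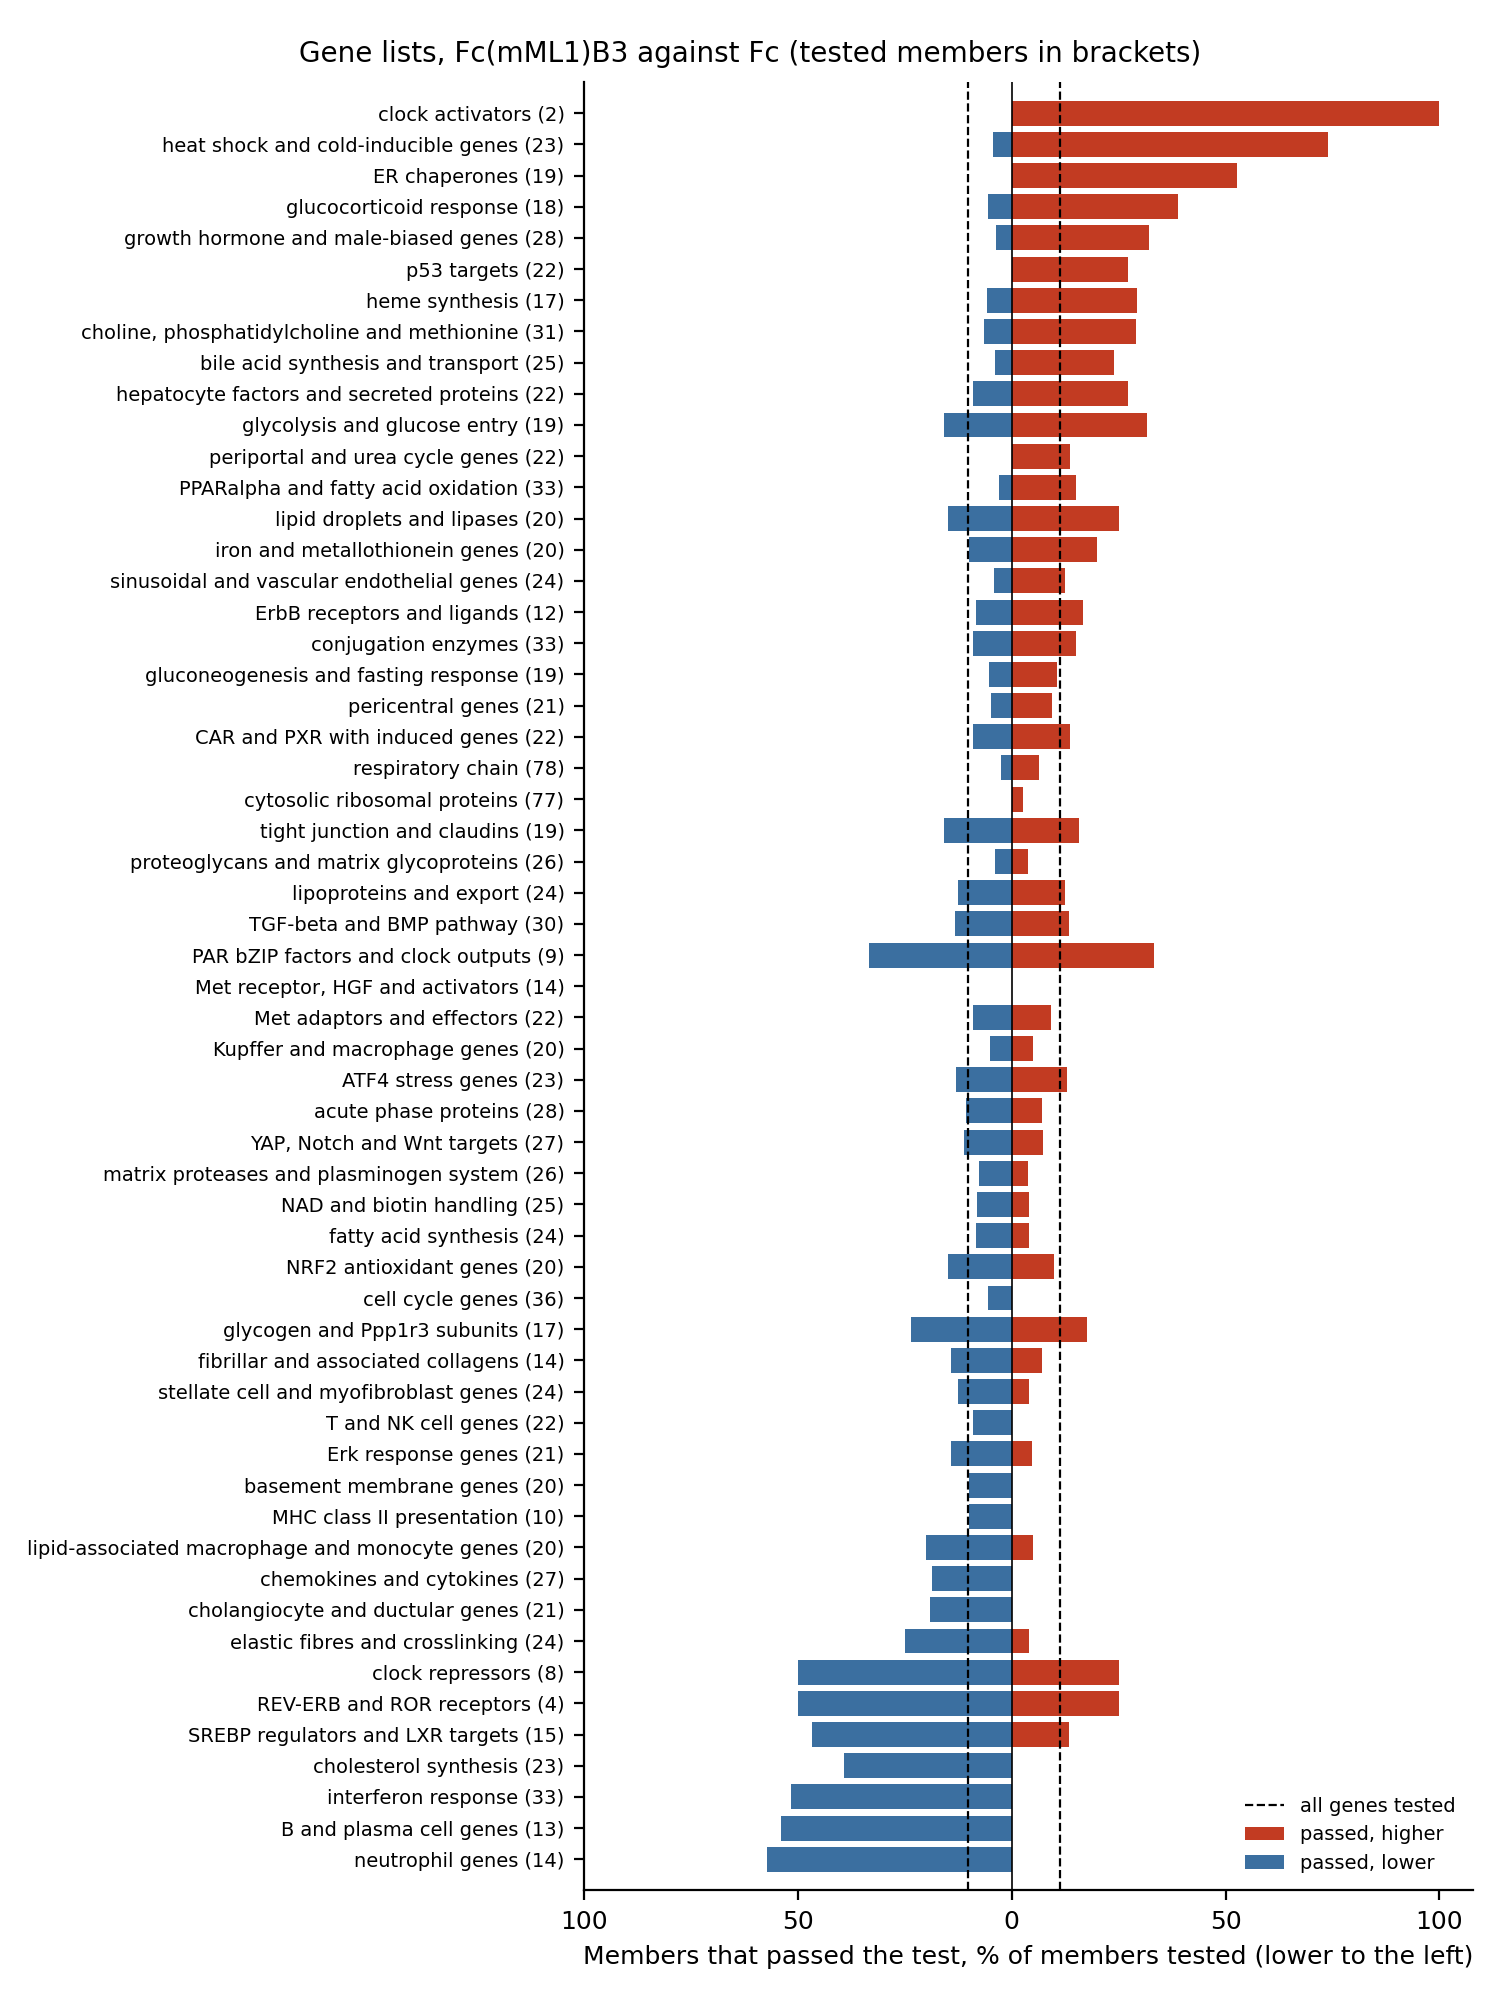
Share of the tested members of each gene list that passed at an adjusted p below 0.1, higher to the right and lower to the left, with the number tested in brackets. Dashed lines mark the 11.3% higher and 10.2% lower among all genes tested, and heat shock genes (17 of 23 higher) and interferon response genes (17 of 33 lower) lie far beyond them.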

How the data were processed

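The deposited values are counts of reads per gene in 1 table per mouse. Before deposit the authors trimmed reads with fastp, removed ribosomal RNA with Bowtie2 2.4.5, aligned to mm10 with STAR 2.7.10a and counted with featureCounts of Subread 2.0.3. Both ends of a pair had to align, each end counted as a read, strand was ignored and reads with several alignments were left out, so genes that overlap or have near copies are uncertain. Of 260 genes checked, 27 share exonic sequence with another gene.

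The 20 HFD libraries were taken from the sample labels. In R 4.3.3, edgeR 4.0.16 scaled the counts by TMM, kept 13299 genes by filterByExpr and fitted them with its quasi-likelihood model. P-values were adjusted by Benjamini-Hochberg over these genes, and each standard error was taken from the change and its F statistic. The study itself used DESeq2, which is an alternative here (1.42.0), as are limma 3.58.1, other scalings, filters and thresholds, a replicate block, a clock covariate, libraries left out and mice 1 to 4 and 5 to 10 compared apart. In simulated counts of 13299 genes with 200 changed, 100% at a log2 change of 1.5 and 98.9% at 2 were recovered, with 9.35% false among those that passed. These counts were drawn for each gene apart, with no library that shifts many genes together. The shares therefore do not cover smaller changes or such libraries. No pair of libraries within a group was a duplicate (90 pairs, chi-square per degree of freedom at least 12.034). Total counts were 14949035 to 27600939, and the p-values measure the spread between mice.

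The members and the 62 gene lists were chosen with earlier results of these data known. Named genes were the 15 called with the smallest p and the 10 with the largest change in each direction, every called list member, the members with the smallest p of lists with fewer than 3 called members (up to 4), and genes of the study's assays. Some genes that the rule names are not reported here. The following were chosen after their values were seen: Alas1, Cirbp, Cpt1a, Cry2, Cxcl9, Cyp7a1, Dnaja1, Hlf, Hsf1, Hsp90ab1, Hspa5, Hspa8, Igf1, Lpcat3, Lss, Mat1a, Onecut1, Pcyt1b, Pemt, Per1, Per2, Pklr, Pygl, Rbm3, Rora, Srebf2, Stat2, Stbd1, Stip1, Tat, Tef, Tsc22d3 and Xbp1. Promoters are from RefSeq on GRCm38.p6.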

Additional observations from a re-analysis of the deposited data

Results flagged for a closer look

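Of 308 group values of the genes given above, 12 (3.9%) held 1 mouse whose gap to its nearest neighbour, on log2(CPM + 0.5), passed Dixon's 95% limit as a share of the group's range, and chance gives about 5%. Among clock genes, Fc(mML1)B3 mouse 2 was lowest for Clock with 18.5 CPM (gap 0.521 of the range), and Fc mouse 1 was lowest for Per2 with 24.9 CPM (0.481) and for Cry1 with 3.42 CPM (0.466). Fc mouse 1 was also lowest for Alas1 with 232 CPM (0.609) and highest for Cldn1 with 61.2 CPM (0.52). Fc mouse 8 was lowest for Bhmt with 947 CPM (0.51), Fc mouse 6 was lowest for Epha2 with 5.47 CPM (0.553), Fc mouse 7 was highest for Il33 with 7.81 CPM (0.479) and Fc mouse 10 was highest for Slc45a3 with 31.6 CPM (0.501). Outside the gene lists, Fc(mML1)B3 mouse 6 was highest for Ablim3 with 62.3 CPM (0.57) and Fc(mML1)B3 mouse 3 was lowest for Klhdc7a with 12.1 CPM (0.508). Acta2 was highest in Fc(mML1)B3 mouse 5 with 36.7 CPM (0.504), the library that stood apart on the first principal component, and without that mouse its change was -0.251 (adjusted p = 0.42) in place of 0.34.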

How the results depend on the processing

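With DESeq2 90 genes were called lower and 88 higher, 175 of them shared with edgeR's 178 calls, and 153 of the 154 genes given with values kept their direction and side of the threshold, all but Gucy2c, at -1.25 (adjusted p = 0.28). Upper-quartile factors gave 102 and 78 and limma-voom 122 and 107. Without TMM, which shifted the median of all genes by -0.0955, 123 were called lower and 63 higher, so that 33.9% of calls were higher against 49.4%. With no filter 187 and about 1.3e+02 (rounded to 2 digits) were called, without the fold limit 1363 and 1508, at an adjusted p below 0.05 with 1.5-fold 281 and 251, and with a test of the 2-fold limit itself 4 and 9, with 11 list members passing in place of 310. Scaling and test also moved list counts by more than 1.5 times and by 3 or more genes. Without TMM 8 counts moved. The number lower was 17 in place of 9 for cholesterol synthesis, 7 in place of 2 for fatty acid synthesis, 7 in place of 4 for glycogen genes, 5 in place of 2 for choline and methionine and 4 in place of 1 for PPAR alpha, and the number higher 1 in place of 4 for iron and metallothionein genes, 3 in place of 6 for p53 targets and 1 in place of 5 for the respiratory chain, which upper-quartile factors moved too (1). With DESeq2 6 MHC class II genes fell in place of 1 and 8 PPAR alpha genes rose in place of 5. With limma-voom 22 counts moved, 21 of them to more genes, such as 16 higher in the respiratory chain and 13 for PPAR alpha, and neutrophil genes to 3 lower in place of 8. With Fc(mML1)B3 mice 1 to 4 alone 156 were called lower and 74 higher, and with mice 5 to 10 alone 114 and 112. Within mice 1 to 4 of both groups, an alternative chosen after seeing the data, 181 were called lower and 76 higher, within mice 5 to 10 of both 88 and 110 with 204 list members passing, and with this split as a term 87 and 85. Without Fc mice 7 and 8, 233 genes did not overlap between the groups in place of 129, and 72 of the 88 genes called higher and 59 of the 90 called lower were still called. Without Fc mice 7 and 8 and Fc(mML1)B3 mouse 5, an alternative chosen after seeing the data, 127 were called lower and 104 higher.

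Leaving out each library in turn gave 73 to 144 genes called lower, 80 to 103 higher, about 1.3e+02 to 203 without overlap, 259 to 484 list members that passed, and 15.5% to 20.2% of the variance between the groups. The 144, 203 and 484 were without Fc(mML1)B3 mouse 5, and the 73 without Fc mouse 7. The correlation of same-numbered mice of the groups was -0.665 to 0.314, and 0 of 10 mice correlated best with their own number. No pairing by number was seen, though such a correlation over all genes cannot exclude a small shared effect. With the replicate number as a block 66 genes were called lower and 87 higher, and 244 list members passed. Of list counts, the number lower was then 2 in place of 8 for neutrophil genes, 4 in place of 7 for B and plasma cell genes, 3 in place of 6 for elastic fibres and 1 in place of 4 for lipid-associated macrophage genes, and the number higher 5 in place of 9 for choline and methionine and 1 in place of 5 for the respiratory chain.

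A covariate for the clock, the log2 ratio of Arntl to Dbp, had a correlation of 0.945 with the group, so the 2 can hardly be separated. Arntl and Dbp are themselves in this ratio, and signs under it are not results on single genes. With it 0 genes were called lower and 0 higher by edgeR, 0 list members passed, and 1054 of 13299 genes had an unadjusted p below 0.05. The log2 change of the following genes then had the opposite sign: Abcg8 0.553, Alas1 1.67, Chka -0.482, Ciart 0.719, Cirbp 0.316, Cldn1 -0.556, Clock -0.0312, Clpx -0.268, Col1a1 0.244, Col3a1 0.0448, Cpt1a 0.134, Creld2 -0.923, Cry2 -0.0107, Cyp2g1 0.721, Dbp 0.397, Ddc -0.169, Epha2 -0.239, Hsp90aa1 -0.619, Hsp90ab1 -0.267, Hspa5 -0.998, Hsph1 -0.526, Hyou1 -0.883, Id3 -0.188, Il33 0.146, Inhbc -0.216, Insig2 -0.728, Lefty1 1.46, Lpcat3 0.0549, Manf -0.692, Mapk3 0.011, Mt2 0.477, Nr1d2 0.0974, Pdk4 -1.51, Per1 0.171, Per3 0.351, Pnpla2 0.396, Ppp1r3c -0.314, Prtn3 2.02, Psmb9 0.353, Rora -0.399, Slc2a5 0.492, Slc30a10 -0.0623, Soat2 0.0262, Srebf2 -0.36, Stat2 -0.449, Stip1 -0.12, Syvn1 -0.874, Tef 0.0815, Tgfb1 0.0154, Themis 0.339 and Tjp3 -0.297. Sign changes elsewhere were in genes that did not pass, apart from Chil3, Cxcl9, Gucy2c, Marco and Pdk4, which passed with all mice. They were, without TMM, Cry2 -0.0876, Hlf -0.0346, Pemt -0.0507, Rora -0.0696 and Srebf2 -0.0165, with upper-quartile factors Cry2 -0.0167 and Rora -0.00811, and with limma-voom Acta2 -0.236, Ccl2 0.0224 and Cry2 -0.00525. With Fc(mML1)B3 mice 1 to 4 alone they were Acta2 -0.00684, Cpt1a 0.0315, Rora -0.0147 and Srebf2 -0.063, and with mice 5 to 10 alone Cry2 -0.00149, Hgf 0.046, Hlf -0.00494 and Pemt -0.0688. Within mice 1 to 4 of both groups they were Acta2 -0.229, Adgre1 0.0121, Alas1 0.258, Chil3 0.364, Cpt1a 0.0575, Cry2 -0.049, Cxcl1 0.181, Cxcl9 0.00677, Gucy2c 1.13, Marco 1.24, Pdk4 -0.0598, Rora -0.0971 and Srebf2 -0.0561, and within mice 5 to 10 of both Hgf 0.0191, Hlf -0.0222, Pemt -0.022 and Tat -0.195. Those without Fc mice 7 and 8 were Ccl2 0.0291, Cry2 -0.0445, Gucy2c 0.237 and Rora -0.0103, and without all 3 libraries Acta2 -0.363, Cry2 -0.00282 and Gucy2c 0.382. With single libraries left out, Acta2 was -0.251 to 0.435, Cry2 was -0.0183 to 0.07, Hgf was -0.226 to 0.0206. The cause of these changes was not tested.

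At 14949035 to 27600939 counts per library, genes near 1 CPM such as Ppp1r3g and Ngp rest on few reads, and a change in them below the spread of the mice was not detectable. Counts are read ends from 1 library per mouse, so they hold no technical replicate.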

Other observations

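Lists of drug and antioxidant metabolism had shares near those of all genes tested, 11.3% higher and 10.2% lower. Of 33 conjugation enzymes 5 rose and 3 fell (8 rose without Fc mouse 3 or Fc mouse 5 alone), of 22 genes of the nuclear receptors CAR and PXR 3 rose and 2 fell (7 fell without Fc(mML1)B3 mouse 5 and none rose without Fc(mML1)B3 mouse 6), and of 20 antioxidant genes of NRF2 2 rose and 3 fell. Osgin1, an NRF2 target that restrains growth, had a log2 change of 0.90 (adjusted p = 0.0058) and Srxn1, which restores peroxiredoxins, one of -0.54 (adjusted p = 0.00044). Of 28 acute phase genes 2 rose and 3 fell, and 2 of the latter were Mt1 and Mt2. Of 24 endothelial genes 3 rose and 1 fell, and 6 rose without Fc(mML1)B3 mouse 5. Gata4, a factor of sinusoidal identity, was at 0.38 (adjusted p = 0.003). Of 27 YAP, Notch and Wnt genes 2 rose and 3 fell, of 12 ErbB genes 2 rose and 1 fell, and of 25 genes of NAD and biotin handling 1 rose and 2 fell (5 rose without all 3 libraries that stood apart). Of 20 basement membrane genes 2 fell with all mice and 5 without Fc(mML1)B3 mouse 5. Of 26 matrix proteases 1 rose and 2 fell with all mice, 9 fell without Fc(mML1)B3 mouse 5 and 5 without all 3. Of 11 immediate early genes that also answer to handling of tissue 3 rose and 1, Junb, fell with a change of -0.80 (adjusted p = 0.0016), while Dusp1, a phosphatase of the list, was at 0.66 (adjusted p = 0.081).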
